A study of Cucumis melo with 30 samples.

Results

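Fruit of the oriental melon cultivar labelled YMR-WF (YMR from here on) was compared between day 15 and day 5 after anthesis, the opening of the flower. The comparison covered every gene that passed a filter on low counts, 18426 of the 27427 genes in the table, in 6 of the 30 RNA sequencing libraries of the series. There were 3 libraries of YMR fruit at day 15 and 3 at day 5. Fruit of a second cultivar, HDB-OF (HDB), sampled with 3 libraries on each of the same days, served to show where the step differed between the cultivars. The labels name no treatment. They give neither the part of the fruit taken nor how many fruits went into a library, and they do not say if replicate libraries were made from different plants. P-values therefore rest on a spread between libraries that may be technical in part. In the tests of single genes it was estimated from all 30 libraries of the series. The letters WF and OF are not spelled out in the labels.

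A melon fruit grows from the ovary after pollination. Its flesh cells first divide, and growth then comes increasingly from the enlargement of cells that have stopped dividing, with large vacuoles, looser cell walls and imported sugars, well before the ripening changes of colour, aroma and softness. The seeds and the vascular strands develop inside the same organ. Genes carry only identifiers here, because the sources used do not pair them with names, products or positions. No gene is therefore given a role, and the labelled tissue could not be checked against marker genes. In bulk tissue such as this, fewer cells of a type and less RNA per cell cannot be told apart.

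The 6 libraries held 18260348 to 21368781 counts each, and day explained most of their variation. The first principal component of log2 expression took 80.9% of the variance and separated the 3 libraries of day 15 from the 3 of day 5. The second took 7.92%, with replicates 2 and 3 of day 15 at its opposite ends. Replicate 2 of day 15 stood apart most. Of 15602 genes with at least 10 counts in all 6 libraries, 1174 were at least 2-fold away from the mean log2 level of the other 2 libraries of its group. In the remaining libraries that number lay between 324 and 966. Levels are given in CPM, counts per 1000000 of the library size after TMM scaling, a correction for differences in composition, and as mean ± SD over 3 libraries. CPM does not correct for gene length, so levels are compared between days and cultivars and not between genes.

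From day 5 to day 15 genes both rose and fell in large numbers, and how even the split was depended on the scaling. Of the genes tested, 10582 passed the test (edgeR quasi-likelihood test, Benjamini-Hochberg adjusted p under 0.05, called from here on), which is 57.4% of them. They comprised 5252 that rose and 5330 that fell, 28.5% and 28.9% of those tested. These are the numbers with TMM scaling. With total-count scaling 4560 rose and 5724 fell, with RLE size factors 4910 and 5664, and with DESeq2 4978 and 5602. Over all genes, the log2 change had a median of 0 with TMM, and the middle 50% of genes lay between -0.65 and 0.55. Among called genes the median change was 0.89 for those that rose and -1.16 for those that fell. Without replicate 2 of day 15, the library that stood apart, 9633 genes were called, 4750 higher and 4883 lower, and 9149 of the 10582 calls were kept with the same direction. Without replicate 1 of day 15 the genes that rose outnumbered those that fell, 4930 to 4903. In all 6 fits that each left out 1 library, 7931 of the 10582 calls (74.9%) held. Of the genes that rose in the full fit 4688 had all 3 day 15 libraries above all 3 of day 5, and 4936 of those that fell had them all below. Among all genes tested, 58.5% did not overlap in one or the other direction.

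Large changes ran downward more often than upward by the fitted values. A change of at least 2-fold was found for 2343 rising and 2958 falling genes, 12.7% and 16.1% of those tested and 28.8% together. At 4-fold the numbers were 935 and 1571, and at 16-fold 245 and 527. Genes with few or no counts on 1 of the days are among these, and their fitted change depends on the prior count. The lean was smaller among well counted genes. Of the 15602 genes with at least 10 counts in each of the 6 libraries, a restriction chosen after seeing the data that removes genes unread on 1 day, 1834 rose and 1904 fell at least 2-fold, and 67 rose and 72 fell at least 16-fold.

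**Figure D1:**
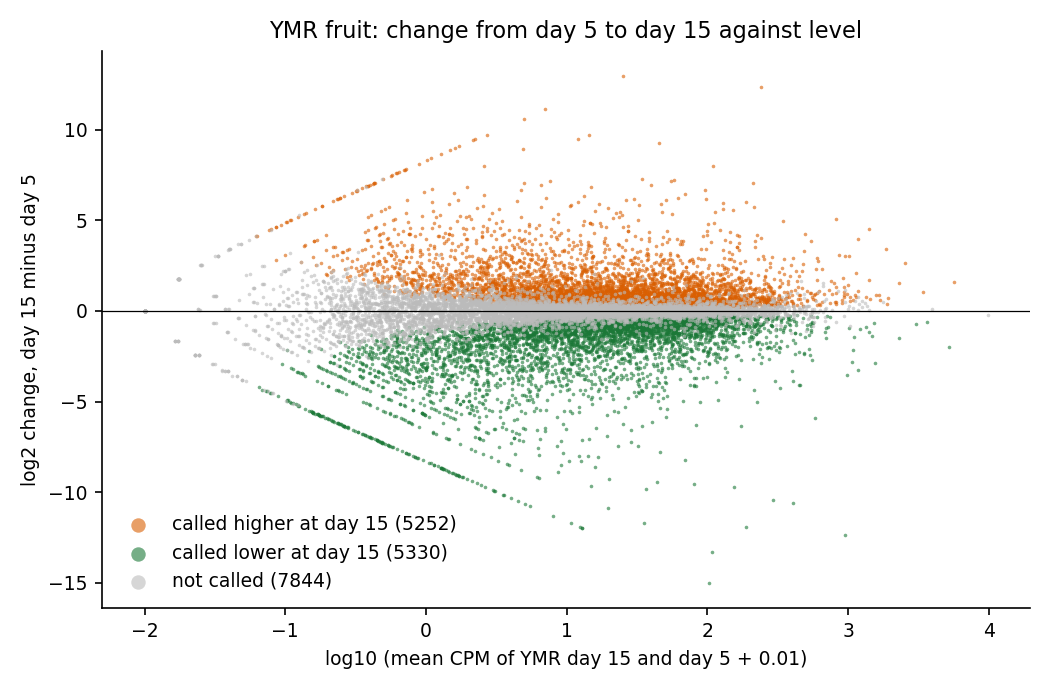
Each point is 1 of the genes tested, with the log2 change from day 5 to day 15 in YMR on the vertical axis and its mean level on the horizontal axis (log10 of the CPM plus 0.01). The 5252 genes called higher and the 5330 called lower fill both sides at every level, and the slanted rows of points at low levels are genes with no count or a few counts on 1 of the days.

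The 2 genes that rose most in fold among those with at least 10 counts in every library were almost silent at day 5. MELO3C010272 had 233, 178 and 247 CPM in the day 15 libraries, against 0.519, 1.5 and 0.437 CPM in the day 5 libraries. Its 3 day 15 values all lay over 100 CPM and its day 5 values near 1 CPM, with no overlap. The log2 change was 8.02 (SE 0.66, edgeR adjusted p = 1.03e-09). This gene stayed high at day 25, with 232 ± 79.9 CPM, and was back at 3.82 ± 0.72 CPM by day 35, so its high level was passing.

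MELO3C021231 had 179, 72.5 and 92.6 CPM at day 15, against 0.606, 0.96 and 0.699 CPM at day 5. The day 15 libraries differed among themselves more than those of day 5, with replicate 1 the highest, but the days did not overlap. Its log2 change was 7.22 (SE 0.34, edgeR adjusted p = 8.52e-14). Unlike MELO3C010272 it went on to higher levels, with 527 ± 67.6 CPM on day 25, then 521 ± 135 on day 30, and 340 ± 6.35 on day 35.

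The 2 genes that fell most under the same rule were well expressed at day 5 and nearly gone 10 days later. MELO3C023519 had 3.19, 4.19 and 5.15 CPM at day 15, against 485, 152 and 397 CPM at day 5. Replicate 2 of day 5 was the lowest of its group and still far above the highest day 15 library. The log2 change was -6.36 (SE 0.37, edgeR adjusted p = 6.04e-12), and the level went on down to 0.255 ± 0.16 CPM at day 35.

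MELO3C020653 had 1.2, 3.04 and 2.06 CPM at day 15, against 167, 179 and 149 CPM at day 5. Its day 5 libraries were close to each other, and all of them stood far above those of day 15. The log2 change was -6.29 (SE 0.33, edgeR adjusted p = 6.74e-13). It remained between 1.2 and 2.43 CPM, as group means, at the 3 later days.

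Genes were also named by the change in their share of the reads, in CPM, which favours long and abundant genes and does not measure molecules. MELO3C006670 had the largest gain in CPM, with 7487, 9541 and 8764 CPM at day 15, against 3291, 2052 and 3063 CPM at day 5. All 3 day 15 libraries lay above all 3 of day 5, and the gene took 0.979% of all counts at day 15, against 0.332% at day 5. Its log2 change was 1.62 (SE 0.17, edgeR adjusted p = 3.16e-08). By day 25 it had dropped to 1611 ± 249 CPM, below its day 5 level.

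MELO3C025027 had 4794, 3428 and 4959 CPM at day 15, against 769, 925 and 412 CPM at day 5. The days did not overlap, and the gene took 0.502% of all counts at day 15, against 0.0854% at day 5. The log2 change was 2.65 (SE 0.34, edgeR adjusted p = 5.49e-07). Its level in YMR kept growing, to 6532 ± 1334 CPM on day 25, then 8554 ± 1405 on day 30, and 10428 ± 826 on day 35.

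MELO3C007269 had the largest loss in CPM. It had 2019, 1751 and 2523 CPM at day 15, against 8227, 9112 and 7836 CPM at day 5. It took 0.24% of all counts at day 15, against 1.01% at day 5. The log2 change was -2.00 (SE 0.15, edgeR adjusted p = 1.93e-10), with clear gaps between the days.

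MELO3C002457 had 394, 272 and 455 CPM at day 15, against 3279, 1882 and 2967 CPM at day 5. The lowest day 5 library stood well above the highest of day 15. Its log2 change was -2.86 (SE 0.45, edgeR adjusted p = 1.19e-05). It fell much further later, to 8.44 ± 3.79 CPM at day 25 and 0.801 ± 0.533 at day 35.

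**Figure D2:**
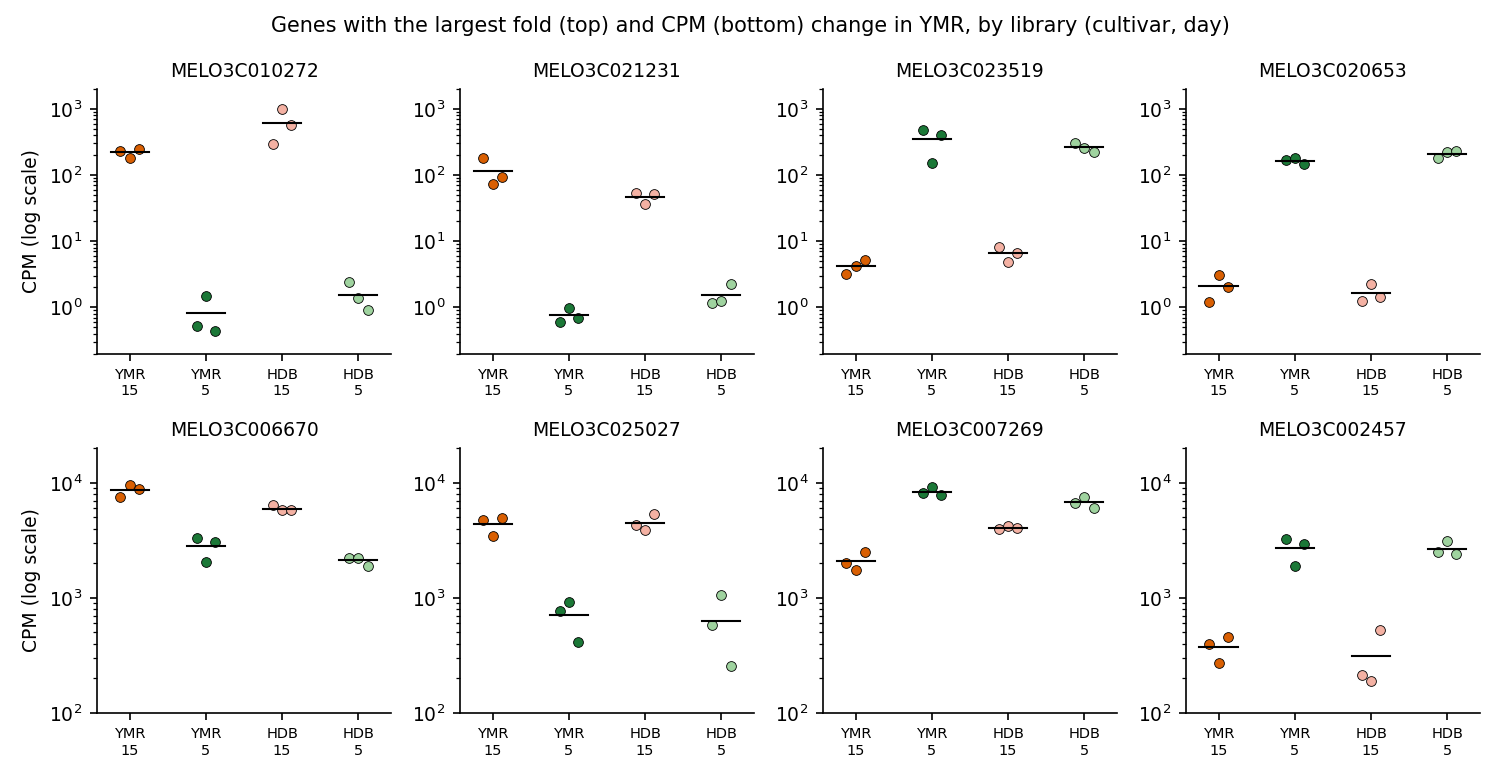
CPM on a log axis in each library (points) with the group mean (line), for the 4 genes with the largest fold change among those with at least 10 counts in each of the 6 YMR libraries (top) and the 4 with the largest change in CPM (bottom), beside the same genes in HDB. In each of the 8 genes the 3 YMR libraries of day 15 lie wholly above or wholly below the 3 of day 5, and the HDB libraries move in the same direction.

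Calls were also split by level, in ways chosen after seeing the data. The level was taken as the geometric mean of the day 15 and day 5 mean CPM (each plus 0.1), which a rise and a fall of the same size move alike. Among the 42 genes at 1000 CPM or more, 18 rose and 10 fell. Between 100 and 1000 CPM 620 of 1701 rose (36.4%) and 423 fell (24.9%). In both classes more genes rose than fell also with RLE size factors, total-count scaling, DESeq2 and only the groups compared, with total-count scaling the closest between 100 and 1000 CPM at 537 and 476. Between 10 and 100 CPM the balance turned with the scaling, with 2827 that rose and 2633 that fell with TMM, 2620 and 2849 with RLE, 2407 and 2880 with total-count scaling, and 2635 and 2873 with DESeq2. Under 1 CPM 361 of 2315 rose and 706 fell. A gene that scarce could pass the filter through the libraries where it was higher, so nothing is read from that class.

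With the mean CPM over all 30 libraries as the level, the contrast was wider, with 49 that rose and 18 that fell at 1000 CPM or more and 895 and 477 between 100 and 1000 CPM. A lasting change after day 5 helps to set that mean, so those numbers are not evidence of a lean by level.

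**Figure D3:**
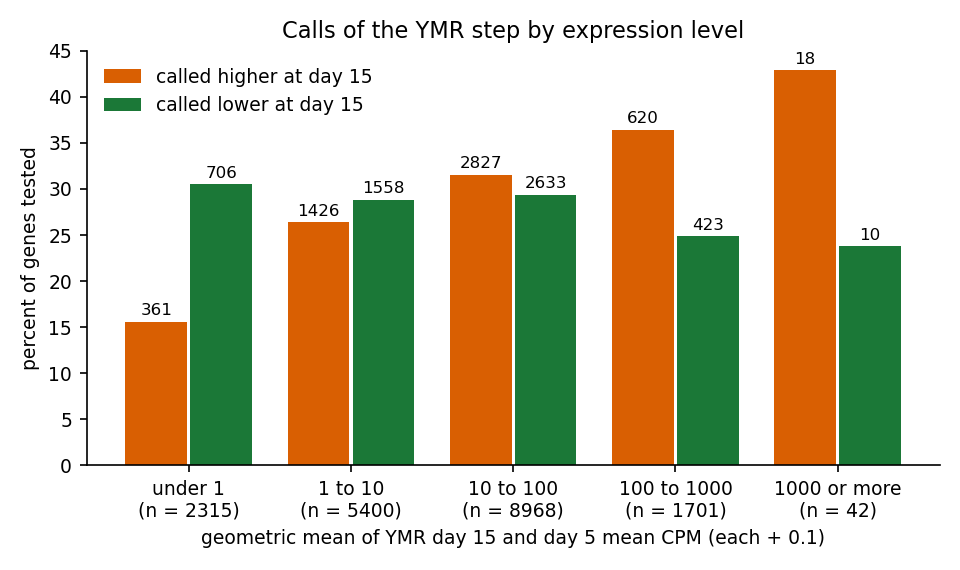
Percent of the genes tested that were called higher or lower at day 15 than at day 5 in YMR, by class of the geometric mean of the 2 days' mean CPM, with the number of genes over each bar. Between 100 and 1000 CPM 620 genes were called higher and 423 lower, while the numbers are close between 10 and 100 CPM (2827 and 2633), where the larger side changes with the scaling.

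The genes called higher, 28.5% of those tested, took 46.6% ± 0.42 of the counts at day 15, against 24.4% ± 0.29 at day 5. Those called lower, 28.9% of those tested, took 17.3% ± 1.5 at day 15, against 38.3% ± 1.1 at day 5. The genes that rose at least 2-fold (12.7% of those tested) took 21.2% ± 0.82 of the counts at day 15, against 6.32% ± 0.25 at day 5. Those that fell at least 2-fold (16.1%) took 4.73% ± 0.41 at day 15, against 18.7% ± 0.49 at day 5. The genes were chosen on these libraries, so the shares describe how many of the reads the step exchanged and test nothing. Genes that rose at least 16-fold came to 1.79% ± 0.082 of the counts at day 15, and those that fell as much had been 1.98% ± 0.19 at day 5, so the most extreme genes were a small part of the exchange.

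The head of the list turned over while its total weight hardly moved. The 10 most counted genes of each library took 5.26% ± 0.25 of its counts at day 15, against 5.36% ± 0.6 at day 5. When the 10 genes with the highest group mean CPM were listed for each day, 5 genes were in both sets of 10. Of the 10 at day 15, 7 were called higher and 1 lower, and of the 10 at day 5, 6 were called lower and 2 higher. Each list was chosen by its own day's level, so it holds more genes that are high on that day. The 100 most counted genes of each library took 18.2% ± 0.91 at day 15, against 16.2% ± 0.6 at day 5. In the lists of 100 by group mean CPM, 55 genes were in both. 50% of the counts lay in 1116 ± 85.2 genes at day 15, against 1268 ± 30.7 at day 5. The exact permutation p (two-sided, 3 against 3) was 1 for the 10 most counted genes and 0.1, the smallest this design can give, for the other pair of measures. Genes with at least 10 counts numbered 16725 ± 35.1 at day 15 and 17249 ± 115 at day 5 (exact permutation p = 0.1).

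Some genes were read on only 1 of the 2 days, in numbers that depended on single libraries. With no count in the 3 libraries of day 5, 104 genes had at least 10 counts over the 3 libraries of day 15. In the reverse direction, with no count at day 15, there were 260. Both sets were drawn from all 27427 genes of the table. Of the 104 genes 58 had passed the low-count filter, and of the 260 genes 150. Most genes of both sets were scarce, with a median of 0.333 CPM at day 15 for the first set and 0.377 CPM at day 5 for the second. In the 2 sets 21 and 65 genes reached 1 CPM. The highest reached 50.2 CPM at day 15 and 204 CPM at day 5, at least 1205-fold and 4526-fold over a floor of 3 counts in the 3 libraries together. These bounds cover counting error only. More were read only at day 5, whichever library was left out, but the size of the gap changed. Leaving out a library loosens the rule of no count on its day, and it removes reads from that day's own set. Without replicates 1, 2 and 3 of day 5, 133, 159 and 139 genes were read only at day 15. Read only at day 5 were 219, 183 and 204. Without replicates 1, 2 and 3 of day 15 the numbers were 76, 65 and 84 for day 15, and 365, 338 and 338 for day 5.

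The later days and the other cultivar are given for both sets without a test. Of the 260 genes read only at day 5, 127 had no count in any later YMR library and 36 had at least 10 there. Of the 104 read only at day 15, 19 had none later and 58 had at least 10. HDB had at least 10 counts on the same day and none on the other for 22 of the 104 and 119 of the 260. By a looser rule, any count at all, it was read on the day without reads in YMR for 68 of the 104 and 111 of the 260.

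A smaller number of genes could be shown to have changed little. For 8405 genes, 45.6% of those tested, the 95% interval of the log2 change lay within 2-fold either way, and 3434 of these were called all the same, with small changes. Of the 7844 genes not called, 4971 were bounded in this way and 2873 were not. The unbounded genes had a median level of 1.3 CPM over all libraries, against 32.8 CPM for the bounded genes. For the unbounded genes the interval did not exclude a change of 2-fold or more.

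The same step in HDB was measured in libraries that share none with YMR. There, 59.4% of all genes tested were called, 28.8% higher and 30.7% lower, and 30.3% changed at least 2-fold, 11% upward and 19.3% downward. Genes chosen for a large change in YMR were mostly called in the same direction in HDB. Of the 2343 genes that rose at least 2-fold in YMR, 1365 (58.3%) were called higher in HDB and 183 (7.81%) lower. Of the 2958 that fell at least 2-fold, 2262 (76.5%) were called lower in HDB and 85 (2.87%) higher. At 16-fold, 188 of 245 rising genes (76.7%) and 460 of 527 falling genes (87.3%) were called in the same direction.

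How far these genes moved in the other cultivar depended on where they were chosen. Those that fell at least 2-fold in YMR had a median log2 change of -2.10 in YMR and -1.92 in HDB. Those that rose at least 2-fold had 1.72 in YMR and 0.96 in HDB, where the median of all genes was -0.02. Chosen in HDB, the 3558 genes that fell at least 2-fold had a median of -1.39 in YMR and -2.19 in HDB, and 64.9% of them were called lower in YMR. The 2032 that rose at least 2-fold in HDB had 1.17 in YMR and 1.73 in HDB, and 68.9% of them were called higher in YMR. Each set was more extreme in the cultivar that chose it.

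**Figure D4:**
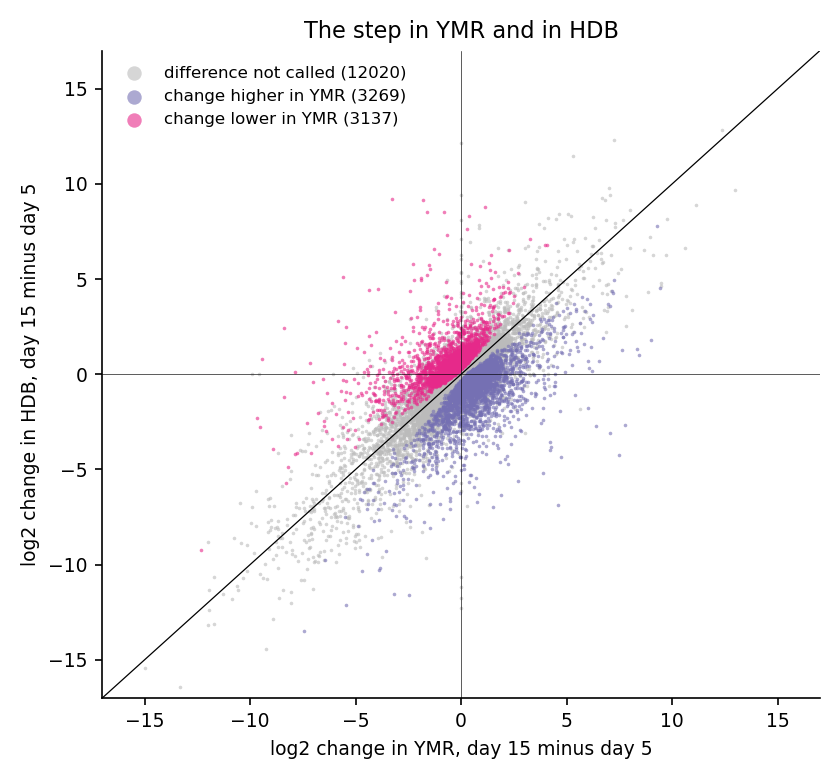
Log2 change from day 5 to day 15 in YMR (horizontal) and HDB (vertical) for each gene tested, with the line of equal change. The 3269 genes whose change was called higher in YMR lie to the lower right of the line, the 3137 called lower to the upper left, and many of both lie near the axes, with a change in 1 cultivar and little in the other.

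A test of the difference between the changes, YMR minus HDB, called 6406 genes, 34.8% of those tested (edgeR quasi-likelihood test, interaction contrast). The change was higher in YMR for 3269 (17.7%) and lower for 3137 (17%). Which side was larger depended on the processing, with 3115 higher and 3292 lower with RLE size factors, 3308 and 3466 with DESeq2, and 1895 and 2133, 4028 in all, with only the 4 groups in the fit. Differences of at least 2-fold were called for 17.8%, 2048 higher (11.1%) and 1232 lower (6.69%). Among the 15024 genes with at least 10 counts in each of the 12 libraries these numbers were 1654 and 1003.

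Genes whose change differed were mostly ones called in a single cultivar. Of the 3269 with a higher change in YMR, 1072 rose in YMR with no call in HDB and 1011 fell in HDB with no call in YMR. Another 436 rose in YMR and fell in HDB, 358 rose in both and 334 fell in both. Of the 3137 with a lower change in YMR, 911 fell in YMR with no call in HDB, 1088 rose in HDB with no call in YMR, 417 fell in YMR and rose in HDB, 378 rose in both and 279 fell in both. Single-cultivar calls were also frequent where the difference was not called. There, 762 genes rose and 715 fell in YMR only, and 812 rose and 915 fell in HDB only. Another 2246 rose in both, 2674 fell in both and 3896 were called in neither.

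Of the 8 genes described above, 2 were among them. MELO3C021231 had 52.9, 36.5 and 51.6 CPM in HDB fruit at day 15, against 1.16, 1.23 and 2.24 CPM at day 5. It rose there by 4.93 on the log2 scale (SE 0.31), less than in YMR, and the difference of the changes was 2.30 (SE 0.44, edgeR adjusted p = 0.000369). MELO3C007269 had 3957, 4174 and 4012 CPM in HDB at day 15, against 6627, 7591 and 6054 CPM at day 5. It fell in both cultivars, with a log2 change of -0.74 (SE 0.15) in HDB, and its change was lower in YMR by a log2 difference of -1.26 (SE 0.21, edgeR adjusted p = 0.000104).

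For the other 6 the difference was not called, and its estimate and error bound it only loosely in some. It was -0.59 (SE 0.86) for MELO3C010272, which reached 618 ± 352 CPM at day 15 in HDB, and -1.02 (SE 0.44, edgeR adjusted p = 0.0763) for MELO3C023519. It was 0.70 (SE 0.43) for MELO3C020653 and 0.12 (SE 0.24) for MELO3C006670. For MELO3C025027 it was -0.19 (SE 0.45), and for MELO3C002457 0.25 (SE 0.59).

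The genes with the most extreme differences among those with a mean of at least 10 CPM in 1 of the 4 groups were genes at or near 0 in 1 group. MELO3C016172 had 2.36, 0.968 and 0.129 CPM in YMR at day 15, against 5.54, 14.8 and 10.9 CPM at day 5. In HDB it had no count at day 15, against 11.3, 15.9 and 28.9 CPM at day 5, at least 454-fold lower over a floor of 3 counts in the group. It fell in both cultivars, and traces persisted at day 15 in the 3 YMR libraries but in none of HDB. The fitted log2 difference was 8.35, which depends on the prior count (edgeR adjusted p = 0.00674). Of the other 3 genes named by this rule, the call rested on the 31 counts of a single YMR library in MELO3C025219, and on 6 counts or fewer over all 6 YMR libraries in MELO3C013293 and MELO3C000806.

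The later course is given for all genes that had risen and for those that had risen at least 16-fold. Both sets were chosen on the YMR libraries of days 5 and 15, which favours a high YMR level at day 15. All 5252 called higher had a median level in YMR of 14.5 CPM on day 5, then 28.9 on day 15, 27.6 on day 25, 23.5 on day 30 and 22.4 on day 35. In HDB their median was 16.6 on day 5 and stayed between 23.5 and 25.2 CPM on the other days, so there was no decline after day 15 there. The 245 genes that had risen at least 16-fold had a median level in YMR of 0.122 CPM at day 5, 5.17 at day 15, 4.28 at day 25, 2.07 at day 30 and 1.38 at day 35. In HDB, whose libraries took no part in the choice, the same genes had 0.339, 3.48, 2.66, 1.49 and 1.02 CPM on those days. The median of this smaller set was thus highest at day 15 and lower at each later day in both cultivars. Single genes differed, and in HDB day 15 had the highest mean for 131 of the 245 (53.5%). The 527 genes that had fallen at least 16-fold had medians of 3.99, 0.0583, 0.0228, 0.02 and 0.0198 CPM in YMR and 4.43, 0.0972, 0.0159, 0.0188 and 0.0168 in HDB, and no later median approached that of day 5. Over all genes tested the median lay between 11.7 and 15.4 CPM in YMR and between 12.3 and 15.9 in HDB.

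**Figure D5:**
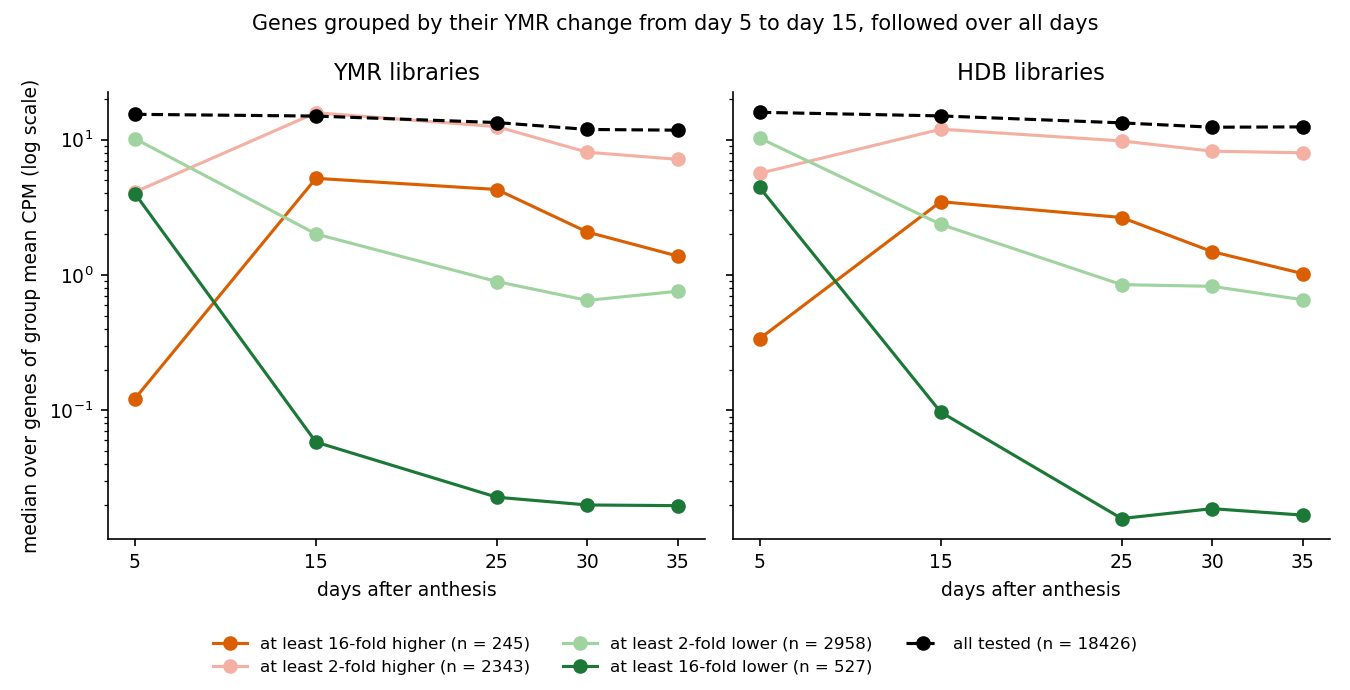
Median over genes of the group mean CPM (log axis) by days after anthesis, for genes grouped by their change from day 5 to day 15 in YMR, in YMR libraries (left) and HDB libraries (right), with all genes tested as the dashed line. The genes that rose at least 16-fold are highest at day 15 in both cultivars (5.17 CPM in YMR, 3.48 in HDB), and those that fell at least 16-fold stay under 0.1 CPM from day 15 on.

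The day with the highest mean was also counted for each gene in HDB. For the 2343 genes that had risen at least 2-fold in YMR it was day 15 in 903 (38.5%), day 35 in 450 (19.2%), day 25 in 437 (18.7%), day 30 in 298 (12.7%) and day 5 in 255 (10.9%). For the 2958 that had fallen at least 2-fold it was day 5 in 2328 (78.7%). Over all genes tested HDB had its highest mean on day 5 for 32.8%, on day 15 for 21.3%, on day 25 for 15.2%, on day 30 for 12.6% and on day 35 for 17.98%. The shares of the risen genes on days 30 and 35 were close to these.

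Libraries of day 15 varied more among themselves than those of day 5. Among the 15602 genes with at least 10 counts in the 6 YMR libraries, 991 had a coefficient of variation over 50% at day 15, against 381 at day 5. The medians were close, 14.7% and 13.9%, so the extra spread sat in a minority of genes. For 575 of the 991 the library farthest from the other 2 was replicate 2, and in 552 of these it was the highest. In HDB the numbers over 50% were 1476 at day 15 and 494 at day 5.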

How the data were processed

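Raw counts of reads for each gene in 30 libraries were deposited by the authors in 1 table. The submitters' processing notes name HISAT2, which aligns reads, and HTSeq, which counts them, and give no version. The sources used here do not give the genome build, annotation, strand or counting options. None of the 27427 identifiers matched the 28628 melon genes of the reference table (0 matches), so lists of pathways and tissue markers could not be applied, and reads shared with near-identical or overlapping genes could not be recognised. Columns were matched to samples by title. Replicate pairs of the 4 groups used were not identical, with chi-square statistics per degree of freedom of 21.2 to 118 (genes with at least 20 counts in the pair).

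Counts were tested with edgeR 4.0.16 (R 4.3.3, limma 3.58.1): filterByExpr (minimum count 10, total 15), TMM scaling, a mean for each of the 10 groups over all 30 libraries, robust quasi-likelihood F tests and Benjamini-Hochberg adjustment over 18426 genes, two-sided. The biological coefficient of variation was 19.1%. The scripts were tested on simulated data. The SE was taken as the absolute log2 change divided by the square root of F. Intervals and floors cover counting error only.

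Genes were named by rules: among called genes, the 2 in each direction with the largest log2 change (at least 10 counts in each of the 6 YMR libraries), the largest change in mean CPM, and the largest difference of the changes (a mean of at least 10 CPM in 1 of the 4 groups). The rules, lists and comparisons were chosen with earlier results of these data known. Alternatives were RLE size factors, total-count scaling, DESeq2 1.42.0, no low-count filter, a replicate block, only the groups compared, a 2-fold threshold, and each library left out in turn.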

Additional observations from a re-analysis of the deposited data

Results flagged for a closer look

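Among genes with a mean of at least 10 CPM in 1 of the 4 groups, 2 in each direction had the largest called log2 difference between the YMR and HDB changes from day 5 to day 15. Each had a group at or near 0 counts, so the fitted values depend on the prior count. The difference was 8.35 for MELO3C016172, described above, and it passed the test under all 18 alternatives tried (log2 difference 7.28 to 8.88, edgeR or DESeq2 adjusted p of at most 0.0204).

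For MELO3C025219 the difference was 9.12 (SE 1.81, edgeR adjusted p = 0.00102). In YMR its day 15 libraries held 0, 0 and 31 counts, against 66, 76 and 41 at day 5, and in HDB 0, 0 and 0 counts at day 15, against 485, 297 and 427 at day 5. The value rests on replicate 3 of YMR day 15. Without it neither cultivar had a count at day 15, and the difference could not be estimated (log2 difference 2.93, SE 4824).

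For MELO3C000806 the difference was -10.97 (SE 3.3, edgeR adjusted p = 0.0184). It had 1 count in YMR at day 15 and 5 at day 5, all 5 in replicate 2, and in HDB 1136, 154 and 169 counts at day 15, against 0, 1 and 1 at day 5, a ratio of 621 (exact 95% interval 172 to 5131). Without replicate 2 of YMR day 5 that group had no count, and the difference could not be estimated (log2 difference -7.40, SE 349).

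For MELO3C013293 the difference was -12.51 (SE 4.45, edgeR adjusted p = 0.0496). It had no count in YMR at day 15 and 4 at day 5, all in replicate 2, and in HDB 1006, 306 and 262 counts at day 15, against 0, 2 and 0 at day 5. The call held under 3 of the 18 alternatives. Without replicate 2 of YMR day 5 no YMR count was left on either day, and the difference could not be estimated (log2 difference -9.22, SE 56131.5). Among the rest the adjusted p reached 0.147, with DESeq2. In the last 2 genes the HDB rise at day 15 was largest in replicate 1.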

How the results depend on the processing

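The counts of called genes in the YMR step (10582, of which 5252 higher and 5330 lower) stayed within 1.5 times of these values under every alternative except the 2-fold threshold, which gave 5301, 2343 and 2958. With only the groups compared in the fit 8217 were called, 3976 higher and 4241 lower, and leaving out a library gave 9633 to 10105. The count for the difference between the cultivars (6406) was 3280 at 2-fold (2048 higher, 1232 lower) and 4028 with only the 4 groups (1895 higher, 2133 lower), and 5192 without replicate 3 of HDB day 5 to 6682 without replicate 3 of YMR day 15. The median log2 change of all genes, 0, became -0.0701 with total-count scaling, -0.041 with RLE size factors and -0.041 with DESeq2, 0.012 with only the groups compared, and -0.014 to 0 with a library left out.

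The genes read on 1 day only numbered 21 (day 15) and 65 (day 5) at a mean of at least 1 CPM, and 65 to 159 and 183 to 365 with a library left out. A 1.5-fold bound held for 4234 genes. The share of the 100 most counted genes was higher by 1.93 percentage points at day 15, while that of the 10 most counted was -0.0939 points from day 5.

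The replicate block gave 10482 calls in the YMR step and 6206 for the difference between cultivars. Equal replicate numbers did not deviate together in YMR, with correlations of -0.039, -0.078 and -0.27. No YMR library of day 15 correlated best with its own number. In HDB the correlations for equal numbers were -0.19, 0.10 and 0.0034, and replicate 2 of day 15 correlated best with its own number. The labels do not say what equal numbers share, so the block describes only a shared number. The 8 genes described for the YMR step passed the test in the same direction under all 12 alternatives. Of the 4 genes named for their difference between cultivars (a mean of at least 10 CPM in 1 of the 4 groups), 1 did so under all 18. Genes under 1 CPM had a median SE of 0.74 on the log2 scale, against 0.14 between 10 and 100 CPM, which limits what these libraries can show for scarce genes.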

Other observations

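The 552 genes that were highest in replicate 2 of YMR day 15, with a coefficient of variation over 50% in that group, had a median level of 41.2 CPM in replicate 2, 15.7 in replicate 1 and 10.7 in replicate 3. Their median was 16.7 CPM in YMR on day 5, then 31.2 on day 25, 4.76 on day 30 and 4.04 on day 35. In HDB it was 26.6 CPM on day 5, then 8.45 on day 15 and 4.07 on day 25. In the YMR step 154 of the 552 (27.9%) were called higher and 76 (13.8%) lower, beside 28.5% and 28.9% of all genes tested. The set was picked after its values were seen and for a high value in a day 15 library, which weighs against calls of lower, and the cause of the spread was not tested.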
